A study of Mus musculus with 6 samples.

Results

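The dual-specificity phosphatase (*Dusp*) genes *Dusp1*, *Dusp2*, *Dusp4*, *Dusp5*, *Dusp6*, *Dusp7*, *Dusp8*, *Dusp10*, *Dusp14* and *Dusp16* were examined in LβT2 cells, an immortalized mouse line derived from pituitary gonadotropes. The genes were found in the count table by their Ensembl identifiers, which gave 10 of 47069 genes, and all 10 had counts in every library. The bulk RNA-seq libraries fall into 2 groups of 3. All cells, at 14 passages by their label, were grown for 2 days, exposed to 2 nM gonadotropin-releasing hormone (GnRH) for 40 min, trypsinized and pelleted. Fresh cells were lysed at once, whereas RNA-Best cells first spent 4 days or more in this preservation reagent at 4 °C. The comparison therefore asks how preservation changed the measured transcripts. No library of cells without GnRH was analysed here, so no value below is a response to the hormone. Whether each library had its own culture is not given in the sources used here, so n counts libraries and their spread may be technical. In bulk samples, fewer cells of a type and less RNA per cell cannot be told apart.

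The phosphatases of this family remove phosphate from both the threonine and the tyrosine of the activation loop of mitogen-activated protein (MAP) kinases and so switch ERK, JNK and p38 off. Several are themselves transcribed in response to the kinases that they inactivate, which makes them part of a negative feedback. In gonadotropes, GnRH acts through its receptor on the ERK, JNK and p38 cascades, and these lead to early response genes such as *Egr1* and *Fos* and to the gonadotropin subunit genes. The members examined here are commonly divided into inducible nuclear enzymes (*Dusp1*, *Dusp2*, *Dusp4* and *Dusp5*), cytoplasmic enzymes that prefer ERK (*Dusp6* and *Dusp7*) and enzymes that prefer JNK and p38 (*Dusp8*, *Dusp10* and *Dusp16*). *Dusp14* encodes a small atypical member that lacks the kinase-binding domain of the others.

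The identity and depth of the libraries were checked first. Total counts were 14477304 to 47438746 in the fresh libraries and 4909418 to 11999363 in the RNA-Best libraries. A count of 0, which allows up to 3 counts, would limit a gene to 0.0632 CPM (counts per 1000000 counts of the library) in the deepest library and to 0.611 CPM in the shallowest. Of 10 gonadotrope markers, 9 were detected, and *Fshb*, the follicle-stimulating hormone beta subunit, was at 0 in all 6 libraries. The summed level of these markers was 3769 to 3804 CPM in fresh and 3233 to 3315 CPM in RNA-Best libraries. Of 9 markers of other pituitary, endothelial, blood and fibroblast cells, *Prl* and *Ptprc* were at 0 everywhere, and the summed level was 43.2 to 44.3 CPM in fresh and 39.8 to 42.2 CPM in RNA-Best libraries. Most of that sum was *Pecam1* (fresh 42.4 ± 0.634 CPM, RNA-Best 38.9 ± 1.63 CPM, SD of 3 libraries each). Both marker sums were lower in every RNA-Best library than in any fresh library, and most of the drop in the gonadotrope sum was *Cga*, from 1813 to 1426 CPM. Of the 9 gonadotrope markers tested by edgeR, 4 were lower (*Cga*, *Pitx1*, *Nr5a1* and *Gata2*, log2 fold changes -0.36, -0.22, -0.21 and -0.07) and 2 higher (*Gnrhr* and *Foxl2*, 0.43 and 0.33), and in the other list *Tshb* was higher (0.91) and *Pecam1* lower (-0.15). The share of gonadotrope markers called was 66.7%, beside 50.8% of all genes tested, of which 24.8% were lower and 26.0% higher. The part of these markers in the results below was not tested.

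The DNA just upstream of the start sites is shown for the 3 genes that differed between the groups (*Dusp2*, *Dusp5* and *Dusp16*), for *Dusp1*, the founding member of the family, and for *Dusp8*, the member with the highest level. The sequences come from RefSeq promoters on GRCm38.p6, which listed 9 of the 10 genes. Each runs 5′ to 3′ on the strand of its gene from 200 to 51 bases upstream of the RefSeq start site. For *Dusp1*, *Dusp5* and *Dusp8* that start lies inside the gene as GENCODE annotates it, so these distances do not count from the gene ends given elsewhere. Capitals mark matches on either strand to motifs bound by factors downstream of MAP kinases or cAMP: the cAMP response element (CRE, TGACGTCA), its core TGACG, which lies within every CRE, the CArG box of serum response factor, and the EGR site GCGNGGGCG.
*Dusp1*, chr17:26508523-26508672, minus strand: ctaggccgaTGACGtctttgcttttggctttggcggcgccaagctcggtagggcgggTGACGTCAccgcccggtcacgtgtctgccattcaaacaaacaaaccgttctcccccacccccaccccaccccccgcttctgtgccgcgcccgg
*Dusp2*, chr2:127335959-127336108, plus strand: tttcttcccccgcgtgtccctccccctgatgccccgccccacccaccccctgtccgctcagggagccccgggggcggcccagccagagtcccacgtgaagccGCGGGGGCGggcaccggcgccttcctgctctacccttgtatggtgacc
*Dusp5*, chr19:53528945-53529094, plus strand: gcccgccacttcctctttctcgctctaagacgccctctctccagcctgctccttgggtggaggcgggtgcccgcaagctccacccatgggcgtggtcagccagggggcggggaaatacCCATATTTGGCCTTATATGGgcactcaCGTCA
*Dusp8*, chr7:142095335-142095484, minus strand: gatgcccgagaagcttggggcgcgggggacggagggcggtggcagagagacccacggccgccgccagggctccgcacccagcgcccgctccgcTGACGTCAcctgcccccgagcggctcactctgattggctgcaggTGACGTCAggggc
*Dusp16*, chr6:134792679-134792828, minus strand: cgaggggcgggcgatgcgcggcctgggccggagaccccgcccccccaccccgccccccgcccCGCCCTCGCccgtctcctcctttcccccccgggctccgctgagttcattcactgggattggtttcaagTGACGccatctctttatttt

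These windows differed in the motifs they held. *Dusp1* held 1 CRE, 143 to 136 bases upstream, and a separate TGACG core 191 to 187 bases upstream. *Dusp8* held 2 CREs, 107 to 100 and 63 to 56 bases upstream. *Dusp5* held 2 adjoining CArG boxes, 82 to 73 and 72 to 63 bases upstream, and a core TGACG on the opposite strand 55 to 51 bases upstream. *Dusp2* held 1 EGR site, 98 to 90 bases upstream, and *Dusp16* held 1 EGR site on the opposite strand, 138 to 130 bases upstream, and a TGACG core 70 to 66 bases upstream. The search covered both strands of the 250 bases upstream of each start. Among 32851 promoters of that length, 1.55% held a CRE, 17.8% the TGACG core, 1.47% a CArG box and 4.7% an EGR site. An AP-1 site (TGANTCA, in 6.75% of all promoters) and TATAAA (in 12.4%) were found in none of the 9 windows, and the ETS core CCGGAA (in 12%) was found only in that of *Dusp14*. The windows of *Dusp6*, *Dusp7* and *Dusp10* held none of the letters searched. A match is a stretch of letters and not a measured binding site.

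Levels were compared between genes per length, as RPKM, the CPM divided by the exonic length in kilobases. *Dusp8*, a JNK and p38 phosphatase, had the highest level, with means of 12.9 ± 0.147 RPKM in the fresh group and 12.8 ± 1.202 RPKM in the RNA-Best group (SD, n = 3 each, as in all pairs of means below). *Dusp10*, of the same class, followed at 9.93 ± 0.281 and 9.42 ± 0.390 RPKM. The next members, *Dusp5* (mean 6.23 RPKM over the 6 libraries), *Dusp7* (5.81 RPKM), *Dusp1* (4.32 RPKM) and *Dusp14* (4.195 RPKM), formed a run in which each overlapped its neighbour in the order. *Dusp2* (2.83 RPKM), *Dusp6* (2.25 RPKM) and *Dusp16* (2.23 RPKM) formed a lower run of the same kind, and *Dusp4* was lowest at 0.222 RPKM. Steps that did not overlap in any of the 6 libraries were those from *Dusp8* to *Dusp10* (ratio of means 1.33), from *Dusp10* to *Dusp5* (1.55), from *Dusp14* to *Dusp2* (1.48) and from *Dusp16* to *Dusp4* (10.04). In the fresh libraries alone, *Dusp5* and *Dusp7*, *Dusp7* and *Dusp1*, and *Dusp2* and *Dusp6* did not overlap either. Set among the 14736 genes tested, *Dusp8* lay at the 67.1 percentile of mean RPKM, *Dusp10* at the 59.6 percentile and *Dusp5* at the 47.7 percentile. *Dusp4* did not pass the filter and is not one of these genes, and its level would lie at their 2.14 percentile.

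**Figure D1:**
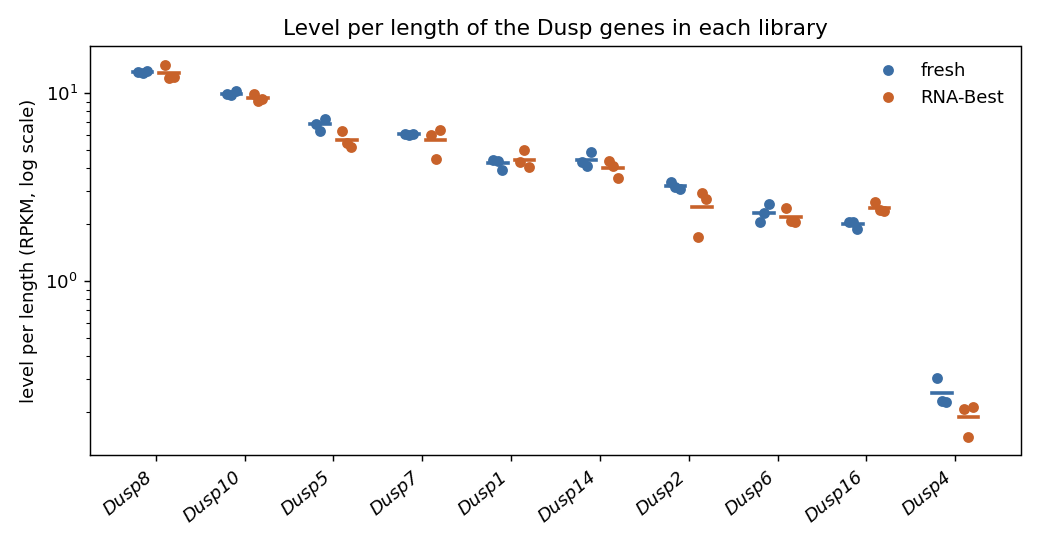
Level per length (RPKM, log scale) of the 10 *Dusp* genes, ordered by mean level, with 1 point per library (3 fresh, 3 RNA-Best) and a bar at each group mean. *Dusp8* and *Dusp10* stand above the rest in all 6 libraries, and *Dusp4* lies far below them at a mean of 0.222 RPKM.

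The length chosen for *Dusp1* moved its place. Its exonic length of 3311 bp joins 6 annotated transcripts, and 1 of them reaches to position 26562128 of chromosome 17, far from the longest coding transcript (chr17:26505590-26508519 on GRCm38, 1990 bp in 4 exons). Scaled by the longest single transcript of each gene instead, which for *Dusp1* is a retained-intron transcript of 2313 bp and not the coding one, *Dusp1* had a mean of 6.19 RPKM and moved from rank 5 to rank 4, just above *Dusp7* at 6.07 RPKM. The study's qPCR oligos for *Dusp1* are shown because they mark which part of the gene that assay reads, and they lie at bases 651 to 670 and 734 to 753 of that coding transcript, within a product of 103 bp.
*Dusp1* forward oligo: gtgtgcctgacagtgcagaa
*Dusp1* reverse oligo: gcactgcccaggtacaggaa
The qPCR measurements were not analysed here.

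Summed over the family, the level per length was 50.9 to 53.1 RPKM in fresh and 47.6 to 51.9 RPKM in RNA-Best libraries. The 2 groups overlapped in this sum. The 3 JNK and p38 phosphatases held 47.7 ± 0.390% of it in the fresh group and 50.1 ± 1.08% in the RNA-Best group. The 4 inducible nuclear phosphatases held 27.8 ± 0.674% and 26.0 ± 2.21%, and the 2 cytoplasmic ERK phosphatases examined 16.01 ± 0.350% and 15.8 ± 1.91%. *Dusp8* alone held 24.8 ± 0.262% and 26.0 ± 1.15%. Of the 10 genes, *Dusp8* held the largest share in both groups.

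The groups were then compared by the quasi-likelihood test of edgeR, fitted to all genes past a filter on low counts and adjusted by Benjamini-Hochberg over the 14736 genes tested. A gene was called at an adjusted p below 0.05. Of the 10 *Dusp* genes, 9 passed the filter, and 3 of these were called (33.3%), against 50.8% of all genes tested. *Dusp16* was higher in RNA-Best libraries, as were 26.0% of all genes tested, and *Dusp2* and *Dusp5* were lower, as were 24.8% of all genes tested. The log2 fold change was below 0 for 8 of the 9 (7 with an offset for exonic length, 5 with an offset for GC content or in thinned libraries), and this count fell to 6 without RNA-Best library 2 and to 5 without RNA-Best library 3. Their median was -0.06 against -0.01 for all genes tested, and none of the 9 exceeded 0.5 in size. The CPM of the groups did not overlap for *Dusp2* and *Dusp16*, 2 of the 9 tested, whereas this held for 57.5% of all genes tested.

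**Figure D2:**
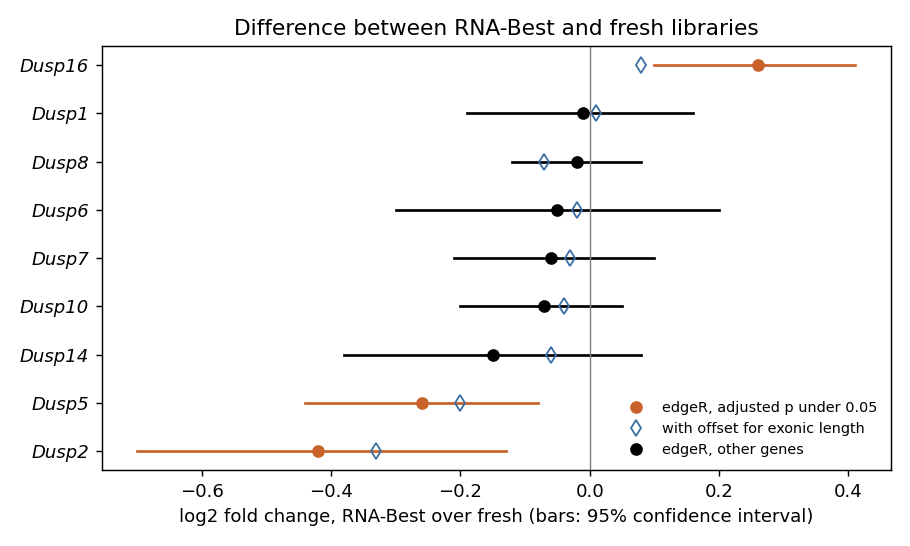
Log2 fold change (RNA-Best over fresh) of the 9 *Dusp* genes tested, with points from edgeR and bars for the 95% confidence interval. Filled points in orange mark the 3 called genes, from -0.42 for *Dusp2* to 0.26 for *Dusp16*, and open diamonds show the value with an offset for exonic length, which lies closer to 0 for all 3.

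Among the inducible nuclear phosphatases, *Dusp1* (ENSMUSG00000024190), which acts on p38, JNK and ERK, was at 14.7, 14.4 and 12.9 CPM in fresh libraries 1 to 3 and at 14.1, 16.5 and 13.3 CPM in RNA-Best libraries 1 to 3. The groups overlapped. Its log2 fold change was -0.01 (SE 0.09, 95% confidence interval -0.19 to 0.16, edgeR adjusted p = 0.902), and it was at 0.01 without fresh library 1 and at 0.06 without RNA-Best library 3.

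*Dusp2* (ENSMUSG00000027368, chr2:127336159-127338376 on GRCm38), which encodes a nuclear phosphatase of ERK and p38 first studied in blood cells, was at 6.71, 6.32 and 6.15 CPM in fresh and at 3.42, 5.91 and 5.50 CPM in RNA-Best libraries. All RNA-Best libraries lay below all fresh libraries, and RNA-Best library 1 lay well below the other two of its group. The group means were 6.39 ± 0.288 and 4.94 ± 1.33 CPM (SD, n = 3 each), and the fall was -0.42 on the log2 scale (SE 0.14, 95% confidence interval -0.70 to -0.13, edgeR adjusted p = 0.0123). The low library rested on 30 counts, with an exact 95% Poisson interval of 2.31 to 4.88 CPM that covers counting error only, and the coefficient of variation among RNA-Best libraries was 27% where counting error alone gives 16.6%. Without RNA-Best library 1 the log2 fold change was -0.21 and the call was lost (edgeR adjusted p = 0.274). The Wald test of DESeq2 did not call it either (adjusted p = 0.0732).

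*Dusp5* (ENSMUSG00000034765, chr19:53529109-53542431), a nuclear phosphatase that is specific for ERK, was at 16.9, 15.58 and 18.0 CPM in fresh and at 15.62, 13.4 and 12.8 CPM in RNA-Best libraries. The groups touched at fresh library 2 and RNA-Best library 1. Its mean was 16.8 ± 1.23 CPM in fresh and 14.0 ± 1.46 CPM in RNA-Best libraries (SD, n = 3 each), a log2 fold change of -0.26 (SE 0.09, 95% confidence interval -0.44 to -0.08, edgeR adjusted p = 0.0128). Without RNA-Best library 3 it was -0.17 and not called (edgeR adjusted p = 0.233), the Wald test of DESeq2 gave an adjusted p of 0.0523, and in thinned libraries it was at -0.31 and not called (edgeR adjusted p = 0.0611). In GENCODE M21, exons of an antisense gene, AC137853.2, cover 547 bp of *Dusp5*. The reads were counted against the earlier GENCODE M8, and whether it holds that gene was not examined. The strand setting of the counting is not given in the sources used here, so whether reads of the pair were kept apart is not known.

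*Dusp4* (ENSMUSG00000031530), another inducible nuclear phosphatase, was at 0.839, 0.632 and 0.622 CPM in fresh and at 0.570, 0.407 and 0.583 CPM in RNA-Best libraries. All RNA-Best values were below all fresh values, but they rested on 2 to 7 counts, and the exact 95% Poisson interval of RNA-Best library 2 ran from 0.0493 to 1.47 CPM. The gene did not pass the filter. Fitted without a filter, it had a log2 fold change of -0.44 (edgeR adjusted p = 0.512), so no difference was detectable at this depth.

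**Figure D3:**
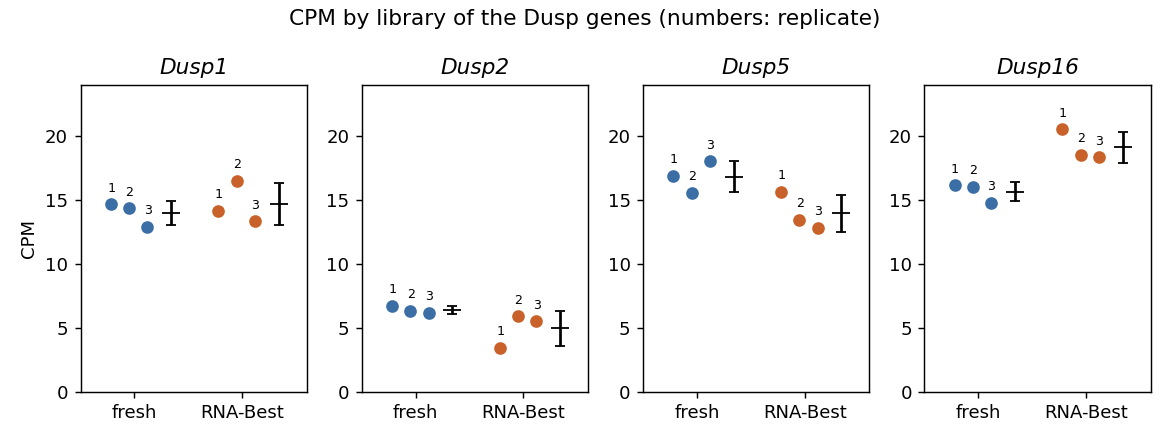
CPM of *Dusp1*, *Dusp2*, *Dusp5* and *Dusp16* in each library (points, numbered by replicate), with the mean and SD of the 3 libraries of each group beside them in black. *Dusp1* overlaps between groups, *Dusp16* is higher in every RNA-Best library, and the low value of *Dusp2* at 3.42 CPM is RNA-Best library 1.

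Neither of the cytoplasmic ERK phosphatases examined here, *Dusp6* and *Dusp7*, was called. *Dusp6* (ENSMUSG00000019960), a widely used readout of ERK activity, was at 6.49, 7.17 and 8.08 CPM in fresh and at 7.64, 6.52 and 6.42 CPM in RNA-Best libraries. The values of the groups were interleaved, and its log2 fold change was -0.05 (SE 0.12, 95% confidence interval -0.30 to 0.20, edgeR adjusted p = 0.757) and turned to 0.03 without RNA-Best library 3. *Dusp7* (ENSMUSG00000053716) was at 20.4, 20.1 and 20.2 CPM in fresh and at 20.1, 14.97 and 21.3 CPM in RNA-Best libraries. The fresh libraries lay almost on one value, and RNA-Best library 2, the shallowest, stood apart from the other two at 73.5 counts. Its log2 fold change was -0.06 (SE 0.08, 95% confidence interval -0.21 to 0.10, edgeR adjusted p = 0.577), and 0.03 without RNA-Best library 2. Its values held parts of counts in 5 libraries.

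Of the JNK and p38 phosphatases, only *Dusp16* was called. *Dusp8* (ENSMUSG00000037887), at 286 to 2946 counts the most precisely measured member, was at 63.1, 62.1 and 63.5 CPM in fresh and at 69.0, 58.3 and 59.5 CPM in RNA-Best libraries. The RNA-Best libraries lay on both sides of the fresh ones, and the log2 fold change was -0.02 (SE 0.05, 95% confidence interval -0.12 to 0.08, edgeR adjusted p = 0.757), turning to 0.01 without RNA-Best library 2 and 0.04 without RNA-Best library 3. *Dusp10* (ENSMUSG00000039384) was at 30.0, 29.5 and 31.2 CPM in fresh and at 30.0, 27.7 and 28.3 CPM in RNA-Best libraries, with a log2 fold change of -0.07 (SE 0.06, 95% confidence interval -0.20 to 0.05, edgeR adjusted p = 0.315). The intervals of both genes ended within 0.20 of no change on the log2 scale.

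*Dusp16* (ENSMUSG00000030203, chr6:134715468-134792625), which encodes a phosphatase of JNK and p38 that shuttles between nucleus and cytoplasm, was at 16.2, 16.02 and 14.8 CPM in fresh and at 20.5, 18.5 and 18.3 CPM in RNA-Best libraries. Each RNA-Best library lay above each fresh library. Its mean was 15.7 ± 0.758 CPM in fresh and 19.1 ± 1.21 CPM in RNA-Best libraries (SD, n = 3 each), and the edgeR fit gave a 1.19-fold rise (log2 fold change 0.26, SE 0.08, 95% confidence interval 0.10 to 0.41, edgeR adjusted p = 0.00491). Without RNA-Best library 1 the log2 fold change was 0.20 and the call was lost (edgeR adjusted p = 0.0689). With an offset for exonic length, which at 7798 bp is the longest of the family, it was 0.08 and not called (edgeR adjusted p = 0.436).

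The atypical *Dusp14* (ENSMUSG00000018648) was at 8.31, 7.97 and 9.46 CPM in fresh and at 8.43, 7.94 and 6.83 CPM in RNA-Best libraries. The groups overlapped, and the log2 fold change was -0.15 (SE 0.11, 95% confidence interval -0.38 to 0.08, edgeR adjusted p = 0.294). Without RNA-Best library 3 it was -0.03.

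Across all genes tested, the difference between the groups moved with exonic length, and the called *Dusp* genes lay on the side of their length class. Among the 2081 genes of 2 to 3 kb, which include *Dusp2* and *Dusp5*, the median log2 fold change was -0.13, and 40.6% were lower and 6.44% higher in RNA-Best libraries. Among the 4252 genes of 5 to 10 kb, which include *Dusp16*, the median was 0.13, and 10.1% were lower and 45.2% higher. *Dusp8* fell into the class of 4 to 5 kb with a median of 0, and *Dusp1*, *Dusp6*, *Dusp7* and *Dusp10* into that of 3 to 4 kb with a median of -0.06. With an offset for exonic length in the edgeR fit, *Dusp2* was at -0.33 (adjusted p = 0.0585), *Dusp5* at -0.20 (adjusted p = 0.0742) and *Dusp16*, as given above, at 0.08. None of the 9 members was then called by edgeR, 2 had an unadjusted p below 0.05, and the calls over all genes (40.8%) were 2283 higher (15.5%) and 3706 lower (25.2%) in place of 3828 and 3651. Without the offset, limma voom called 3 members and the DESeq2 Wald test 1, where they called 7459 and 5955 of the 14736 genes tested. With an offset for GC content, *Dusp16* stayed called at 0.19 (edgeR adjusted p = 0.0382), while *Dusp2* at -0.31 (edgeR adjusted p = 0.0696) and *Dusp5* at -0.18 (edgeR adjusted p = 0.0877) did not.

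**Figure D4:**
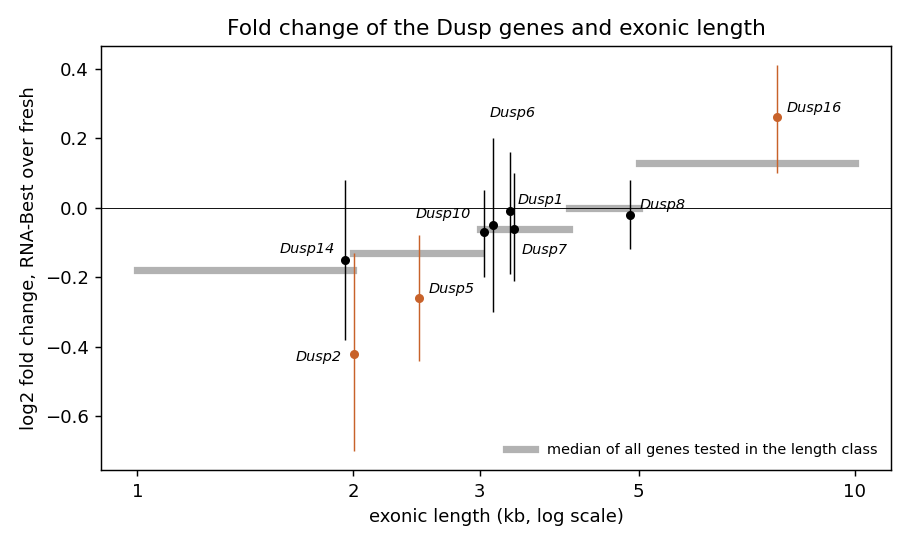
Log2 fold change (RNA-Best over fresh) of the 9 *Dusp* genes tested against exonic length in kb (log scale), with bars for the 95% confidence interval and grey lines for the median of all genes tested in each length class. *Dusp2* and *Dusp5* lie below 0 in a class with a median of -0.13, and *Dusp16* lies above 0 in a class with a median of 0.13.

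Ratios between members within a library do not depend on library size, but they do move with the length trend above where the members differ in length. The ratio of *Dusp16* to *Dusp5* CPM was 0.956, 1.03 and 0.820 in fresh and 1.31, 1.38 and 1.43 in RNA-Best libraries. *Dusp5* and *Dusp16* were thus near equal in reads in fresh cells, and *Dusp16* exceeded *Dusp5* in every RNA-Best library (means 0.935 ± 0.106 and 1.37 ± 0.0575, SD, n = 3 each). The ratio of *Dusp16* to *Dusp2* was 2.41, 2.53 and 2.40 in fresh and 6, 3.14 and 3.33 in RNA-Best libraries. The highest of these again came from RNA-Best library 1. As a share of the family's summed RPKM, *Dusp16* held 3.86 ± 0.253% (fresh) and 4.99 ± 0.0828% (RNA-Best), and *Dusp5* 13.1 ± 0.672% (fresh) and 11.5 ± 0.672% (RNA-Best). *Dusp5* is 2473 bp and *Dusp16* 7798 bp long, and with the length offset their log2 fold changes were -0.20 and 0.08 in place of -0.26 and 0.26. These pairs were chosen after their values were seen and carry no test.

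The rest of the MAP kinase pathway gave a frame for the family. The *Dusp* genes were set beside 6 lists, in which 30 of 54 genes tested were called (55.6%, against 50.8% of all genes tested), 14 higher and 16 lower in RNA-Best libraries. With the length offset 20 were called (37.0%, against 40.8% of all genes tested), 5 higher and 15 lower. Both shares were near those of all genes and are no result about the pathway. The kinases on which the phosphatases act were called for 5 of 10 (50%, again beside 50.8% of all genes tested), 3 higher and 2 lower, with a median log2 fold change of -0.01. *Mapk8* (JNK1) was at 89.3 ± 1.599 CPM in fresh and 104 ± 2.92 CPM in RNA-Best libraries (log2 fold change 0.20, edgeR adjusted p = 4.74e-05), but its direction turned with the length offset, to -0.10 (edgeR adjusted p = 0.0308). With the GC offset *Mapk8* was at 0.03 and not called (edgeR adjusted p = 0.537). *Mapk9* (JNK2) was at 0.18 (edgeR adjusted p = 0.000287). It was not called with the length offset (0.04), with the GC offset (0.08, edgeR adjusted p = 0.0954) or in thinned libraries (0.12, edgeR adjusted p = 0.0883). *Mapk3* (ERK1) fell by 0.19 on the log2 scale, from 154 ± 3.66 to 136 ± 1.35 CPM (edgeR adjusted p = 1.33e-05), and *Mapk13* (p38 delta) fell by 0.16 (edgeR adjusted p = 0.00257). Both remained called with the length offset (-0.12 and -0.13). *Mapk3* was also called with the GC offset (-0.10), but *Mapk13* was not called with the GC offset (-0.10, edgeR adjusted p = 0.0538) or in thinned libraries (-0.09, edgeR adjusted p = 0.287). With the length offset 0 of the 10 MAP kinases were higher and 5 lower, where 15.5% of all genes tested were higher and 25.2% lower.

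The MAP kinase kinases, which phosphorylate what the *Dusp* enzymes dephosphorylate, were called for 4 of 7 (57.1%, near the 50.8% of all genes tested), 1 higher and 3 lower, with a median of -0.09. With the length offset, and also without RNA-Best library 2, 2 were called, both lower. Of all genes tested, 25.2% were lower with the length offset, and 3241 of 15006 were lower without RNA-Best library 2. *Map2k2* (MEK2) fell by 0.26 on the log2 scale (edgeR adjusted p = 6.01e-06) and *Map2k3*, a kinase of p38, fell by 0.19 (edgeR adjusted p = 0.000489). Both were also called with the length offset (-0.35 and -0.17) and the GC offset (-0.14 each). *Map2k4*, a kinase of JNK, was at 0.12 (edgeR adjusted p = 0.0137), and its call was lost with the length offset (0.08), with the GC offset (0.02, edgeR adjusted p = 0.785), with no filter (0.08), without RNA-Best library 1 (0.12) and without RNA-Best library 2 (0.09). Of the other dual-specificity phosphatases, most of which do not act mainly on MAP kinases, 10 of 16 passed the filter and 5 were called (50%, near the 50.8% of all genes tested), 3 higher and 2 lower, with a median of 0.05. *Dusp11*, an RNA phosphatase, rose from 88.6 ± 0.250 to 120.45 ± 4.32 CPM (log2 fold change 0.43, edgeR adjusted p = 6.19e-12), and with the length offset it was at 0.22 and still called (edgeR adjusted p = 9.92e-06). *Styx*, a catalytically dead relative, was at 0.78 (edgeR adjusted p = 0.000488), with parts of counts, and *Dusp23* at -0.59 (edgeR adjusted p = 0.0264) and *Dusp28* at -0.18 (edgeR adjusted p = 0.0103). None of these 3 calls held with the length offset, which left *Styx* at 0.40, *Dusp23* at -0.48 and *Dusp28* at -0.07. The call of *Dusp23* was also lost without RNA-Best library 2 or 3, and that of *Dusp28* without fresh library 2 or RNA-Best library 1 or 2.

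Other brakes on the cascade were the tyrosine phosphatases with a kinase interaction motif, of which only *Ptpn5* was tested (log2 fold change 0.01, edgeR unadjusted p = 0.952, adjusted p = 0.966), and the Sprouty and Spred inhibitors of Ras signalling, of which 3 of 4 tested were higher and 0 lower, with a median of 0.16, where 26.0% of all genes tested were higher. With the length offset, 1 of the 4 was called. *Spred3* was at 0.48 (edgeR adjusted p = 7.69e-07), also called with the length offset, and *Spred1* at 0.17 (edgeR adjusted p = 0.000997). *Spred1* was not called with the length offset (0.03), with the GC offset (0.02, edgeR adjusted p = 0.719) or in thinned libraries (0.14, edgeR adjusted p = 0.0894). *Spry4* was not called, at 1.83 CPM (fresh) and 1.79 CPM (RNA-Best). The early response genes, to which *Dusp1* and its inducible relatives are often added, were called for 13 of 22 (59.1%, near the 50.8% of all genes tested), 4 higher and 9 lower, with a median of -0.10. Of all genes tested, 26.0% were higher and 24.8% lower. In thinned libraries, and also without RNA-Best library 1, 1 early response gene was higher and 10 were lower, and with the GC offset 6 were higher and 7 lower. For all genes, thinning gave 2790 higher and 2567 lower of 12918 tested. Without RNA-Best library 1 there were 3415 higher and 3090 lower of 15015, and with the GC offset 3210 and 3859 of 14677. *Egr3*, a zinc finger factor, rose from 69.9 ± 3.49 to 100.3 ± 2.499 CPM (log2 fold change 0.49, edgeR adjusted p = 2.99e-12), and *Ier3* fell by 0.67 on the log2 scale (edgeR adjusted p = 0.000448). *Jund*, an AP-1 subunit, fell by 0.32 (edgeR adjusted p = 3.89e-09), and with the GC offset it was at -0.19 and still called (edgeR adjusted p = 4.06e-05). *Nr4a2*, an orphan nuclear receptor, was at 0.48 (edgeR adjusted p = 0.0147), and it was not called without RNA-Best library 1 (0.31, edgeR adjusted p = 0.223), without RNA-Best library 2 (0.39, edgeR adjusted p = 0.0821) or in thinned libraries (edgeR adjusted p = 0.205), while without RNA-Best library 3 it was at 0.79.

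Levels in the fresh group set the family among these genes. Of the 10 MAP kinases, 5 lay above and 5 below the 12.9 RPKM of *Dusp8*, from 4.13 RPKM to the 68.2 RPKM of *Mapk3*. Of the 22 early response genes, 15 lay above *Dusp8* and 7 below it, from the 0.796 RPKM of *Nr4a2* to the 454.8 RPKM of *Nr4a1*. *Spry4* stood at 0.384 RPKM, near the 0.255 ± 0.0447 RPKM of *Dusp4*. The genes whose log2(CPM + 1) over the 6 libraries was most like that of *Dusp8*, among 14735 compared, were *Arhgap10* (Pearson r = 0.979), *Gon7* (0.979) and *Gm15998* (0.978). A further description of likeness is that 91 genes exceeded an r of 0.9. The 6 points are the same libraries for every gene and differ in depth.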

How the data were processed

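Bulk RNA-seq of 3 fresh and 3 RNA-Best samples of LβT2 cells was used. The authors aligned single reads to GRCm38 (mm10) with STAR 2.5.1b and counted them per gene with featureCounts 1.5.0-p1 against GENCODE M8. The authors deposited the featureCounts values without scaling for library size, and since some hold parts of counts, this table was treated as one of estimated counts. They were rounded before the count models, and the setting that divided reads is not given in the sources used here.

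In R 4.3.3, all genes were fitted with edgeR 4.0.16 (quasi-likelihood test, TMM, filterByExpr with a minimum count of 10), and a gene was called at a Benjamini-Hochberg adjusted p below 0.05. CPM used column totals. RPKM was made here from CPM and the joined exonic length in GENCODE M21, a later release on GRCm38. Limma 3.58.1 (voom) and DESeq2 1.42.0 were alternatives, beside other filters, scaling, offsets for length and GC content (loess, span 0.5), thinning of all libraries to the smallest (4909268 counts), a 1.2-fold threshold, the longest transcript as length, and leaving out single libraries.

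The *Dusp* genes, gene lists and tests were chosen with earlier results of these data known. Named were all 10 *Dusp* genes, up to 2 called genes with the largest and up to 2 with the smallest log2 fold change of each list, and the 3 genes most like the member of highest RPKM. Other genes, markers included, were named after their values were seen. *Spry3* was listed but not analysed here, and neither were the qPCR and single-cell experiments.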

Additional observations from a re-analysis of the deposited data

How the results depend on the processing

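Of 153 log2 fold changes of the *Dusp* genes over 17 alternatives, 121 kept their direction and their side of the threshold, 16 kept direction but lost the call and 16 changed sign. *Dusp4* had a value only without a filter. All sign changes were in genes that were not called. Against 3 called members, there were 1 with the DESeq2 Wald test (3 at an unadjusted p below 0.05), 0 with the length offset (2 unadjusted), 1 with the GC offset, 2 with thinning, which lost *Dusp5*, 0 with the 1.2-fold threshold of edgeR's glmTreat (1 unadjusted), and 1 to 3 without single libraries, with 1 without RNA-Best replicate 1. Over all genes tested, the DESeq2 Wald test called 5955 of 14736, the length offset 5989 of 14689 and the GC offset 7069 of 14677. Thinning called 5357 of 12918, and leaving out single libraries 6357 to 7273 genes, with 6505 of 15015 without RNA-Best replicate 1. For the pathway lists, the 1.2-fold threshold left 5 of 30 calls, and leaving out single libraries gave 24 to 29. Signs above 0 were found for *Dusp1* with the DESeq2 Wald test and the length offset (both 0.01), the GC offset (0.03) and thinning (0.16); for *Dusp6* with thinning (0.16); for *Dusp7* (0.04) and *Dusp8* (0.08) with the GC offset; and for *Dusp10* with thinning (0.03). Without single libraries the log2 fold change ranged from -0.07 to 0.06 for *Dusp1*, -0.14 to 0.03 for *Dusp6*, -0.16 to 0.03 for *Dusp7*, -0.10 to 0.04 for *Dusp8* and -0.23 to -0.03 for *Dusp14*. *Mapk8* turned to -0.10 with the length offset, with and without the replicate block. With the longest transcript or thinning, 6 of 10 members kept their rank of level, and 8 to 10 without single libraries; the share of *Dusp8*, 25.4%, was 22.9% with the longest transcript and 25.0% to 25.6% without single libraries. The cause of these changes was not tested. The adjusted p ranged over the alternatives from 0.00281 to 0.274 for *Dusp2*, 0.00145 to 0.816 for *Dusp5* and 0.00265 to 0.881 for *Dusp16*. Over all genes, 7479 calls became 1693 with the 1.2-fold threshold.

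Whether same-numbered libraries of the groups belong together is not given in the sources used here. Deviations of same-numbered libraries correlated at -0.00563, 0.0355 and 0.00243, and 1 of the 3 numbers matched best with itself. These deviations are taken from means of 3 libraries and hold counting error, so they cannot decide whether the libraries were paired. With a replicate block 3 members and 7472 of 14736 genes were called and *Dusp1* was at 0.03. With the replicate block and the length offset together, 1 member (lower) and 5961 of 14689 genes were called and *Dusp1* was at 0.06. Depth limits *Dusp4*, at 2 to 34 counts.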
